A study of Mus musculus with 15 samples.

Results

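Claudins and the tight junction proteins beside them were examined as 10 genes in the mouse cecum: Cldn2, Cldn3, Cldn4, Cldn7, Cldn8, Cldn12, Cldn15, Cldn23, Ocln, which encodes occludin, and Tjp1, which encodes ZO-1. They were taken by gene symbol, and all 10 were found among the 45804 genes of the expression table. Male wild-type (WT) C57BL/6 mice were gavaged 2 times a day for 30 days with vancomycin, ampicillin, neomycin, metronidazole and the antifungal amphotericin B (antibiotic-induced microbiome depletion, AIMD, 7 mice), or water on the same schedule (vehicle, 8 mice). The labels give an age of 20 weeks for every mouse, and the methods of the study give a younger age at the start. The emptied cecum was sequenced whole, so epithelium, muscle, nerves and immune cells were measured together. The comparison asks which genes differ after this gavage, in which loss of gut microbes and the drugs themselves cannot be told apart. Reads counted on genes, recovered from the deposited values, ranged from 8679625 to 18108455 in AIMD mice and from 4372360 to 14405844 in vehicle-treated mice.

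Tight junctions seal the space between neighbouring epithelial cells near their apical surface. Claudins are membrane proteins that span the membrane several times and form the strands of the junction. Some claudins tighten the seal, while others form narrow channels that let small ions and water pass between the cells. Occludin lies in the same strands, and ZO-1 ties the strands to the actin cytoskeleton.

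Levels are given as FPKM (reads of a gene per unit of its length and of library depth), and changes as the difference of mean log2(FPKM + 0.5), AIMD minus vehicle, which understates the change of low genes. The tests were limma fits over 11971 genes with p-values adjusted by the Benjamini–Hochberg method, and an adjusted p under 0.05 was called. Of the 10 genes, 5 passed the threshold: Cldn7, Cldn8 and Ocln were higher in AIMD mice, and Cldn2 and Cldn15 were lower. Among all genes tested, 36.0% passed, 19.4% as higher and 16.6% as lower, so that 5 of 10 stands beside a broad background of change. The groups did not overlap for Ocln and Cldn2, against 8.56% of all genes tested, 5.26% with AIMD above and 3.30% with AIMD below. The median log2 fold change of the 10 genes was 0.18, against 0.01 over all genes tested.

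The bases before the transcription start are shown for 3 genes the results turn on: Cldn2 and Ocln, whose groups did not overlap, and Cldn7, the most abundant claudin. Each line gives the 250 bases before a RefSeq start in GRCm38.p6, 5′ to 3′ on the strand of the gene. Capitals mark the letters of any motif searched, on either strand. The Cldn2 stretch lies at chrX:139800558-139800807 (plus strand), the Ocln stretch at chr13:100552719-100552968 (minus strand) and the Cldn7 stretch at chr11:69964529-69964778 (plus strand).
Cldn2: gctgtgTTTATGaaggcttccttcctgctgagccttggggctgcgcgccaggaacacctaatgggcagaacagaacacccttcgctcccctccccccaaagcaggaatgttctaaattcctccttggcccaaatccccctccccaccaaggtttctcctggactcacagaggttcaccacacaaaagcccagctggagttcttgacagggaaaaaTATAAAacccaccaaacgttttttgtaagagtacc
Ocln: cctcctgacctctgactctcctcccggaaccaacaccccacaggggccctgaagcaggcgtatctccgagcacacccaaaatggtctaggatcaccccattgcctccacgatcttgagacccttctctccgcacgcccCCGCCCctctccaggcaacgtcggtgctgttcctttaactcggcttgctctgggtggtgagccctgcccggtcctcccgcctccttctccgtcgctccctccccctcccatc
Cldn7: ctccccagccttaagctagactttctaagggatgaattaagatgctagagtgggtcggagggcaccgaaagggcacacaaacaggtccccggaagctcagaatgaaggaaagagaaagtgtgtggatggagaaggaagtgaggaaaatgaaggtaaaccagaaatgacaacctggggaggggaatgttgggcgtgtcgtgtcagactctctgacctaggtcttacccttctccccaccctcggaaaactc

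Cldn2 held a CDX site (TTTATG) starting 244 bases before the start and a TATA box (TATAAA) starting 35 bases before it. Among 32851 RefSeq windows of the same length, 10.8% held the first and 12.4% the second. Ocln held a GC box (GGGCGG, on the opposite strand) starting 112 bases before the start, as did 32.7% of all windows with that motif on either strand. None of the motifs searched was found in the Cldn7 stretch shown. RefSeq lists a second start for Cldn7 and for Ocln, 642 and 220 bases into the gene, and the windows before these, which run into exons, held a GC box starting 6 bases (Cldn7, opposite strand) and 43 bases (Ocln) before the start. The other motifs searched were CACGTG (E-box, 6.02% of all windows), TTATGTAA (D-box, 0.819%), CAAAGT (HNF4 motif, 12.6%), GTTAAT (HNF1 motif, 6.43%) and AACNNGTT (GRHL site, 3.64%), and none of them was found in the 3 stretches shown. RefSeq windows were at hand for 8 of the 10 genes, and Cldn8 and Cldn23 were not among them.

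Of the 3 claudins linked to the passage of cations, Cldn2 and Cldn15 were lower in AIMD mice, and Cldn12 did not pass the test. Cldn2, which forms a channel for small cations and water in leaky epithelia, lies on chromosome X from 139800828 to 139811386 (plus strand, GRCm38, GENCODE M21). Its FPKM ran from 4.28 to 7.39 in AIMD mice with a median of 5.45, and from 7.85 to 22 in vehicle-treated mice with a median of 12.7. All 7 AIMD mice lay below all 8 vehicle-treated mice, and the vehicle group was also the more scattered, with a coefficient of variation of 40.1% against 19.3%. The means were 5.58 ± 1.08 (SD, n = 7) and 13.8 ± 5.55 (SD, n = 8), which is a change of -1.17 (log2 scale, standard error 0.21; adjusted p = 0.000481 by limma). In a bulk tissue such as this, fewer cells of a type and less RNA per cell cannot be told apart. The exact two-sided permutation test over the 6435 splits of the mice gave p = 0.000466 for Cldn2 alone.

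Cldn15, which forms a channel for sodium in the intestine, lies on chromosome 5 from 136966616 to 136975858 (plus strand). Its FPKM ran from 76.9 to 106 in AIMD mice (median 97.4) and from 80.4 to 202 in vehicle-treated mice (median 146). Of the vehicle-treated mice, 7 lay above the highest AIMD mouse, and vehicle replicate 8 alone fell within the AIMD range. The means were 92.9 ± 11.6 (SD, n = 7) and 147 ± 40.0 (SD, n = 8), which is a change of -0.62 (log2 scale, standard error 0.17; adjusted p = 0.00986 by limma, two-sided exact permutation p = 0.00528). Without vehicle replicate 8 the log2 fold change was -0.74 (limma adjusted p = 0.000659), and with all libraries scaled to a set of 6 epithelial genes it was -1.07 (adjusted p = 0.000621). That scaling moved the median of all genes to -0.37, and relative to this median Cldn15 was at -0.70. Vehicle replicate 8 also had the fewest reads of all mice and the highest summed FPKM of smooth muscle markers, at 2988 against at most 1359 in the other vehicle-treated mice, and the part of either in its value was not tested.

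Cldn12, a claudin linked to calcium passage, lies on chromosome 5 from 5489537 to 5514958 (minus strand). FPKM values ran from 18.6 to 29.1 in AIMD mice (median 22.1) and from 15.1 to 28.1 in vehicle-treated mice (median 21.1), and the groups overlapped over nearly their whole ranges. The log2 fold change was 0.11, with a 95% confidence interval from -0.17 to 0.38 (limma adjusted p = 0.547).

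**Figure D1:**
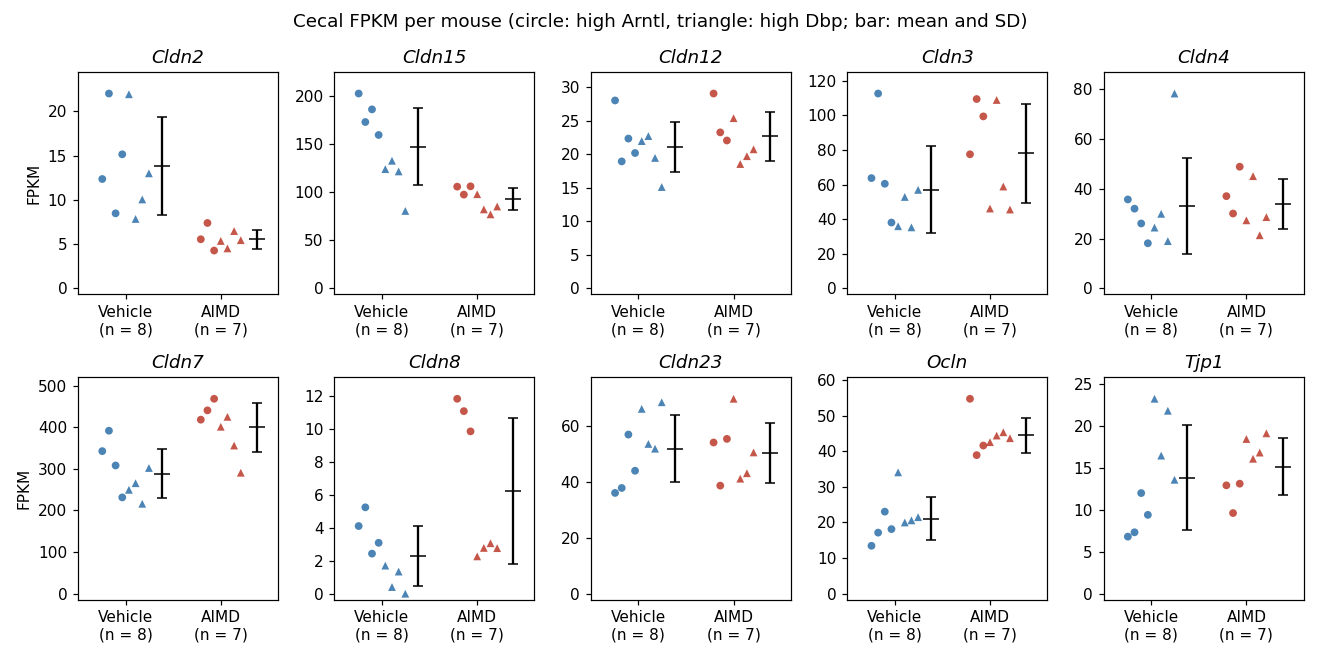
FPKM of each of the 10 genes in each mouse (vertical axis, linear), with vehicle-treated mice in blue and AIMD mice in red. Circles are mice with high Arntl and triangles mice with high Dbp, and the bar beside each group is its mean and SD (n = 8 and n = 7). The groups separate without overlap for Cldn2 and Ocln, and in both groups the Cldn8 circles lie above the triangles.

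Sealing claudins were led by Cldn7, a claudin of the basal and lateral membranes that is needed for an intact colonic epithelium. Cldn7 lies on chromosome 11 from 69964779 to 69967885 (plus strand) and had the highest mean FPKM of the 10 genes in both groups. Its FPKM ran from 291 to 468 in AIMD mice (median 418) and from 216 to 392 in vehicle-treated mice (median 284). Above the highest vehicle-treated mouse lay 5 AIMD mice, and 4 vehicle-treated mice lay below the lowest AIMD mouse. The AIMD mean was 1.39 times that of vehicle, at 399.9 ± 59.4 (SD, n = 7) against 288 ± 59.3 (SD, n = 8), which is a change of 0.48 (log2 scale, standard error 0.15; adjusted p = 0.0171 by limma, two-sided exact permutation p = 0.00622). Under the scaling to the 6 epithelial genes, the median of all genes moved to -0.37 and the log2 fold change of Cldn7 to 0.03 (adjusted p = 0.877), which is 0.40 above that median. Of those 6 epithelial genes, 4 were themselves higher and 1 lower in AIMD mice.

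Cldn3, which tightens the barrier, lies on chromosome 5 from 134986214 to 134987472 (plus strand), where its exons overlap Wbscr25 on the opposite strand. Values ran from 45.6 to 109 FPKM in AIMD mice (median 77.5) and from 35.3 to 113 in vehicle-treated mice (median 54.9), and the groups overlapped. Vehicle replicate 2 had the highest value of all, at 113, and the next vehicle-treated mouse had 63.8. The log2 fold change was 0.46, with a 95% confidence interval from -0.08 to 1.01 (limma adjusted p = 0.174). It was 0.62 without vehicle replicate 2 (adjusted p = 0.0446), and 0.60 after removal of each library's trend with GC content, an alternative chosen after seeing the data (adjusted p = 0.0142). Scaled to the epithelial genes it was 0.01 (limma adjusted p = 0.968), which is 0.38 above the median of all genes under that scaling. The exact rank-sum test gave an adjusted p of 0.352.

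Cldn4, which limits sodium passage, lies near Cldn3 on chromosome 5 from 134945119 to 134946934 (minus strand). The FPKM ranged from 21.3 to 48.8 in AIMD mice (median 30.0) and from 18.1 to 78.1 in vehicle-treated mice (median 28.0). Vehicle replicate 8 held the value of 78.1, while the other 7 vehicle-treated mice reached at most 35.7. The log2 fold change was 0.15, with a 95% confidence interval from -0.40 to 0.69 (limma adjusted p = 0.689), and without vehicle replicate 8 it was 0.34 (adjusted p = 0.168).

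Cldn23, a claudin of differentiated surface epithelium, lies on chromosome 8 from 35824712 to 35826559 (minus strand). It ran from 38.8 to 69.9 FPKM in AIMD mice (median 50.7) and from 36.2 to 68.7 FPKM in vehicle-treated mice (median 52.9). The 2 ranges nearly coincided. The log2 fold change was -0.03, with a 95% confidence interval from -0.37 to 0.31 (limma adjusted p = 0.893).

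Cldn8, a sodium barrier of the distal gut and the collecting duct, lies on chromosome 16 from 88560828 to 88563183 (minus strand). It was higher in AIMD mice. Within each group its values were also higher in mice with high Arntl, with a wide gap in AIMD mice only. The 3 AIMD mice with high Arntl had 9.87 to 11.9 FPKM, and the other 4 AIMD mice had 2.27 to 3.07. The 4 vehicle-treated mice with high Arntl had 2.44 to 5.25, and the other 4 had 0 to 1.71. No read was counted in vehicle replicate 8, where 3 reads would be an FPKM of 0.291. Over all mice the means were 6.25 ± 4.44 (SD, n = 7) and 2.30 ± 1.80 (SD, n = 8), which is a change of 1.34 (log2 scale, standard error 0.50; adjusted p = 0.0441 by limma, two-sided exact permutation p = 0.0356). This call was lost in 7 of 15 fits that left out 1 mouse, namely AIMD replicate 1, 2 or 3 or vehicle replicate 5, 6, 7 or 8, with adjusted p up to 0.0977, and with a pseudocount of 0.1 (log2 fold change 1.76, adjusted p = 0.0609).

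Mice with high Arntl and mice with high Dbp are named here for genes of the circadian clock, whose levels follow the time of day. A clock gene axis, the mean of 5 genes that peak with Arntl minus the mean of 8 genes that peak with Dbp, each centred and scaled within its group, left a gap in both groups. On this axis AIMD replicates 1 to 3 and vehicle replicates 1 to 4 had high Arntl, and the other mice had high Dbp. High is relative to the mouse's own group, so a shift of the clock between the groups would not show on this axis. Of the 12 axis genes that passed the filter, 1 was called higher and 1 lower in AIMD mice. Whether clusters of the same name match in clock time between the groups was not tested. The methods of the study name time of sacrifice as a factor, but the labels do not give it for each mouse, so the axis only stands in for it. With the cluster as a factor, Cldn8 had a log2 fold change of 1.47 (limma adjusted p = 0.000291), and it was 1.48 within the high-Arntl mice (adjusted p = 0.00254) and 1.46 within the high-Dbp mice (adjusted p = 0.0302). The lowest AIMD mouse lay above the highest vehicle-treated mouse in both clusters, and how many of all genes tested do so was not counted.

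Tjp1, the scaffold of the junction plaque, lies on chromosome 7 from 65296165 to 65527781 (minus strand) and moved with the same axis. Its FPKM was 9.62 to 13.1 in AIMD mice with high Arntl and 16.1 to 19.1 in those with high Dbp. In vehicle-treated mice it was 6.81 to 12 with high Arntl and 13.6 to 23.2 with high Dbp. The clusters thus did not overlap within either group, while the treatment groups did, with a log2 fold change of 0.22 and a 95% confidence interval from -0.30 to 0.74 (limma adjusted p = 0.512). How many of all genes tested split by cluster in this way was not counted. Over all mice Tjp1 had a median FPKM of 16.1 under AIMD and 12.8 under vehicle.

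Cldn15 was also uneven along the axis in vehicle-treated mice, with 159 to 202 FPKM in the 4 mice with high Arntl and 80.4 to 132 in the 4 with high Dbp. In AIMD mice the corresponding FPKM values were 97.4 to 106 and 76.9 to 97.8. Its log2 fold change was -0.80 within the high-Arntl mice (limma adjusted p = 0.00894) and -0.40 within the high-Dbp mice (adjusted p = 0.154). The interaction of treatment and cluster, which tests this difference itself, had a log2 value of -0.40 (standard error 0.24, adjusted p = 0.993). In this test with limma, 0 of 11971 genes passed the threshold, and 534 had an unadjusted p under 0.05. Cldn2 and Ocln changed in the same direction in both clusters and passed the threshold in each, with log2 fold changes of -1.22 and -1.11 for Cldn2 and 1.31 and 0.89 for Ocln, in the high-Arntl and high-Dbp mice (limma adjusted p from 0.00292 to 0.0194).

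**Figure D2:**
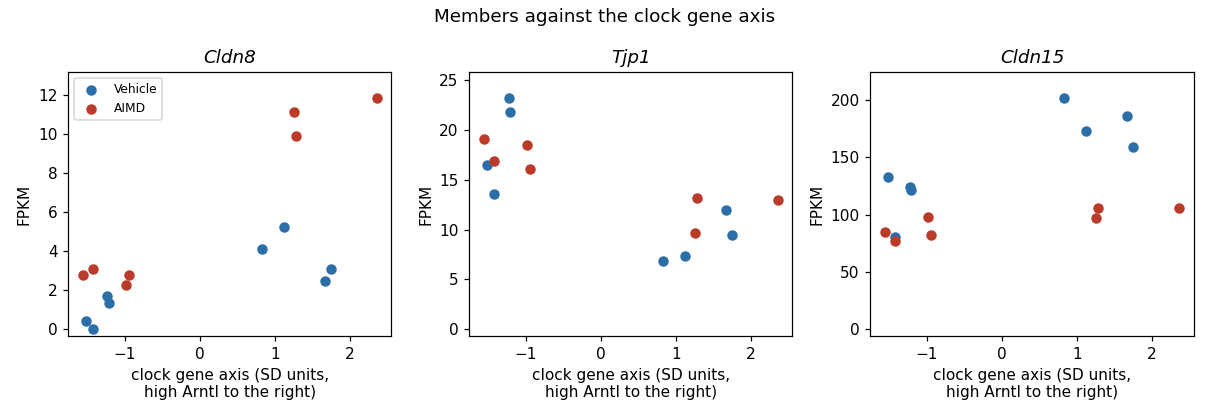
FPKM of Cldn8, Tjp1 and Cldn15 (vertical axes) against the clock gene axis (horizontal axis, in SD units, high Arntl to the right), with 1 point for each of 8 vehicle-treated mice (blue) and 7 AIMD mice (red). Cldn8 was higher and Tjp1 lower in mice on the right, and Cldn15 of vehicle-treated mice was higher on the right.

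Ocln, a membrane protein of the junction strands that carries a MARVEL domain, lies on chromosome 13 from 100496507 to 100552718 (minus strand). Its FPKM ran from 38.9 to 54.7 in AIMD mice (median 43.7) and from 13.5 to 34.1 in vehicle-treated mice (median 20.3). Every AIMD mouse lay above every vehicle-treated mouse, with vehicle replicate 5 the nearest of the vehicle group and the next of them at 23.0. The AIMD mean was 2.12 times that of vehicle, at 44.4 ± 4.99 (SD, n = 7) against 21 ± 6.05 (SD, n = 8). On the log2 scale the change was 1.10 (standard error 0.15; adjusted p = 5.1e-05 by limma, two-sided exact permutation p = 0.000311). With each mouse left out in turn it stayed between 1.02 and 1.21, and with all libraries scaled to the epithelial genes it was 0.66 (adjusted p = 0.0106). The last value is 1.03 above the median of all genes under that scaling.

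**Figure D3:**
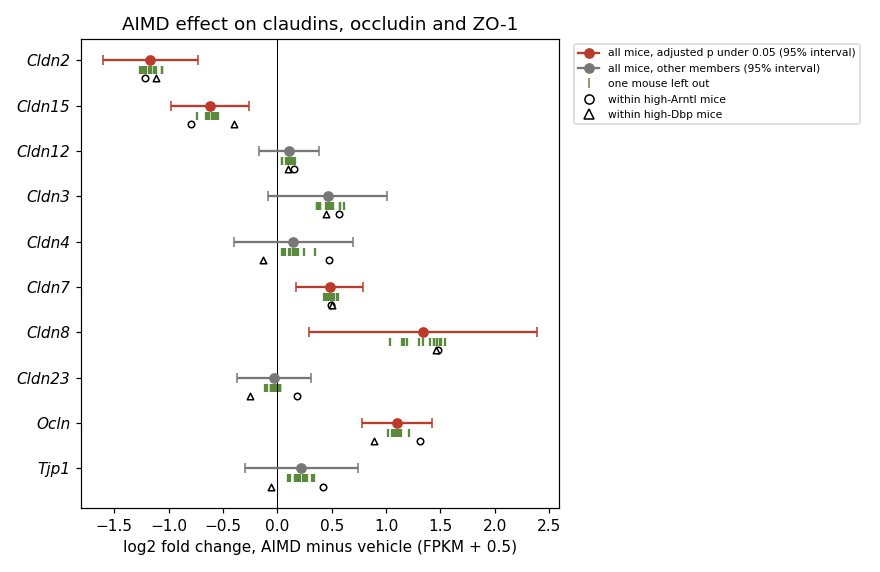
Log2 fold change of FPKM + 0.5, AIMD minus vehicle, for each gene (horizontal axis), with the 95% confidence interval over all mice. Red points passed an adjusted p of 0.05 and grey points did not, green ticks are fits with 1 mouse left out, and open circles and triangles are fits within the high-Arntl and the high-Dbp mice. The Cldn8 interval is the widest, and the open symbols of Cldn4, Cldn23 and Tjp1 lie on both sides of 0.

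The order of the genes by mean FPKM, a scale per gene length, began alike in both groups, with Cldn7, Cldn15, Cldn3 and Cldn23. Cldn7 was above Cldn15 in 7 of 7 AIMD mice and in 8 of 8 vehicle-treated mice. Cldn15 was above Cldn3 in 8 of 8 vehicle-treated mice and in 5 of 7 AIMD mice. Ocln stood at rank 5 of 10 in AIMD mice and at rank 7 in vehicle-treated mice, where it was above its neighbour Cldn12 in 4 of 8 mice. Cldn2 stood last in AIMD mice, though it was above Cldn8 in 4 of 7, and at rank 8 in vehicle-treated mice. Every mouse of its group kept the order of Cldn7 over Cldn15, Cldn4 over Cldn12 and Cldn12 over Tjp1 in AIMD mice, and of Cldn7 over Cldn15, Cldn15 over Cldn3 and Tjp1 over Cldn8 in vehicle-treated mice. The other neighbours changed places in at least 1 mouse, most often Cldn23 and Ocln and also Cldn8 and Cldn2 in AIMD mice, and Cldn3 and Cldn23 and also Cldn2 and Tjp1 in vehicle-treated mice, where the gene with the higher mean was above in 3 mice.

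The make-up of claudin mRNA is given as the percentage of each gene in the summed FPKM of all genes named Cldn with a number, with no test. Cldn7 made up 57.8% ± 1.87 (SD, n = 7) under AIMD against 46.5% ± 1.93 (SD, n = 8) under vehicle, and its ranges, 54.7% to 60.6% and 43.4% to 49.2%, did not overlap. Cldn15 made up 13.5% ± 1.51 (SD, n = 7) and 23.9% ± 5.24 (SD, n = 8), with ranges of 11.2% to 16% and 13% to 29.9% that overlapped. Cldn2 made up 0.827% ± 0.215 (SD, n = 7) and 2.27% ± 0.906 (SD, n = 8), also without overlap. Cldn2 and Cldn15 together, a pair chosen after their values were seen, held 14.4% ± 1.61 (SD, n = 7) under AIMD against 26.2% ± 5.22 (SD, n = 8) under vehicle, with ranges of 11.9% to 17.0% and 15.1% to 32.7% that overlapped. The shares of Cldn3 (11.1% and 8.93%), Cldn4 (4.87% and 5.31%), Cldn12 (3.32% and 3.49%) and Cldn23 (7.44% and 8.75%) also overlapped between the groups. Cldn8 stayed under 2% of the sum in every mouse, at 0.862% and 0.354% on average. The sum itself was 692 ± 100.4 FPKM (SD, n = 7) under AIMD against 618 ± 107 FPKM (SD, n = 8) under vehicle. Since the shares of 1 mouse add up to a fixed total, a rise of one gene lowers the share of the others.

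**Figure D4:**
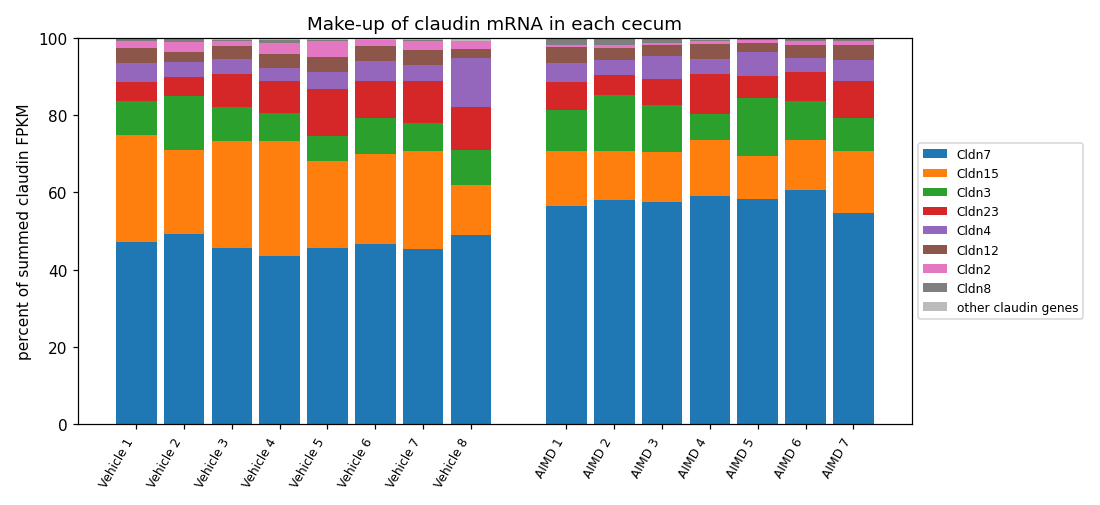
Share of each claudin in the summed claudin FPKM of each mouse (vertical axis, percent, stacked to the full sum), with 8 vehicle-treated mice on the left and 7 AIMD mice on the right. The Cldn7 share is above 54% in every AIMD mouse and below 50% in every vehicle-treated mouse.

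The other genes named Cldn with a number held 0.286% of the summed claudin FPKM on average under AIMD and 0.544% under vehicle. That sum leaves out the claudin-domain genes. Of 29 other claudin and claudin-domain genes listed, 27 were found, 14 were at 0 in every mouse, and 3 passed the filter on low values. Cldnd1, a claudin-domain gene, was higher in AIMD mice, at 32.6 ± 3.54 FPKM (SD, n = 7) against 18.1 ± 4.02 FPKM (SD, n = 8), with a limma adjusted p of 0.000187. Cldn5, the main claudin of blood vessels, was lower, at 0.618 ± 0.261 FPKM (SD, n = 7) against 1.24 ± 0.400 FPKM (SD, n = 8), with a limma adjusted p of 0.00866. The Cldnd1 call was lost when all libraries were scaled to the epithelial genes, and the Cldn5 call was lost within each clock cluster.

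Other membrane proteins of the junction moved in both directions, and the split of every list from here on depends on the scaling. Of 14 listed, 13 passed the filter, 4 were higher and 2 lower in AIMD mice, with a median log2 fold change of 0.10. Marveld3, a relative of occludin, rose by 0.89 on the log2 scale (limma adjusted p = 2.1e-05), and Marveld2, which encodes the tricellulin of tricellular contacts, also passed. Ildr1, an angulin of tricellular contacts, rose by 0.87 (adjusted p = 0.000169), while Lsr, another angulin, was lower. Igsf5, a junctional adhesion molecule, rose by 0.81 (adjusted p = 2.74e-05). Crb3, an apical polarity protein, fell by 0.87 on the log2 scale (adjusted p = 0.00149). F11r, the most abundant of the list, did not pass, with a log2 fold change of 0.11.

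Among 28 plaque and polarity proteins listed, 25 were found and 21 passed the filter, of which 6 were higher and 5 lower, with a median log2 fold change of 0.23. Pard6b, a polarity protein, rose most, by 1.21 on the log2 scale (limma adjusted p = 0.000141). Scrib, a basolateral polarity protein, fell by 0.66 (adjusted p = 0.000365), and Amotl1, an angiomotin, fell by 0.70 (adjusted p = 0.00223). Amotl1 was at a low level, at 0.410 ± 0.0639 FPKM (SD, n = 7) under AIMD against 1.03 ± 0.412 FPKM (SD, n = 8) under vehicle. Its AIMD mean was below the 0.5 FPKM that the filter asks for in 7 or more mice. The list did not move one way, and Cgn and Pard3 were among those called higher while Cgnl1, Llgl2 and Prkci were among those called lower.

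Of 16 claudin partners and junction regulators, 14 passed the filter, of which 2 were higher and 2 lower, with a median log2 fold change of -0.03. Epcam, which binds claudin-7, was the most abundant, at 1854 ± 333 FPKM (SD, n = 7) against 1618 ± 172 FPKM (SD, n = 8), and did not pass (log2 fold change 0.18, limma adjusted p = 0.311). Arhgef2 rose by 0.83 on the log2 scale (adjusted p = 0.000571). Spint2, an inhibitor of the membrane proteases that cleave EpCAM, fell by 0.90 on the log2 scale (adjusted p = 0.000593). Ybx3, a transcription factor that binds ZO-1, fell by 0.56 (adjusted p = 0.0148).

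Among 13 transcription factors of claudin and epithelial genes, 11 passed the filter, 4 were higher and 0 lower at an adjusted p under 0.05, with a median log2 fold change of 0.27. Hnf4a, a nuclear receptor of the differentiated gut epithelium, rose by 1.25 on the log2 scale, from 61.0 ± 16.3 FPKM (SD, n = 8) to 144 ± 28.9 FPKM (SD, n = 7), without overlap of the groups (limma adjusted p = 4.64e-05). Its relative Hnf4g was at a low level and rose by 1.14 (adjusted p = 0.000286). Klf4 and Klf5, factors of the surface and of the crypt, rose by 0.60 each (adjusted p = 0.0121 and 0.0211). Elf3, the most abundant of the list, did not pass, with a log2 fold change of -0.31.

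Desmosome genes were higher where they passed. Of 10 desmosome genes, 9 passed the filter, 6 were higher and 0 lower, with a median log2 fold change of 0.61. Pkp1 rose by 1.44 (limma adjusted p = 4.49e-05), Dsg2 by 0.77 (adjusted p = 0.0107), Dsc2 by 0.76 (adjusted p = 0.00534) and Jup by 0.62 (adjusted p = 0.00994). Of 14 adherens junction genes, 10 were found, 8 passed the filter and 2 were higher, Pvrl3, a nectin, by 0.72 (adjusted p = 0.000151) and Cdh17 by 0.44 (adjusted p = 0.028). The adherens junction counts were unstable, with 0 to 4 called higher and 0 to 2 lower over the alternatives, and each moved by over 1.5 times in 13 of 34. When all libraries were scaled to the epithelial genes, 1 desmosome gene was called higher and 2 lower, and 0 adherens junction genes higher and 2 lower. Cdh17 is itself 1 of the 6 epithelial genes, so its value under this scaling is not independent of the scaling. Under the same scaling the membrane proteins had 2 higher and 5 lower, the plaque and polarity proteins 1 and 6, the partners and regulators 1 and 8, and the transcription factors 2 and 3.

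**Figure D5:**
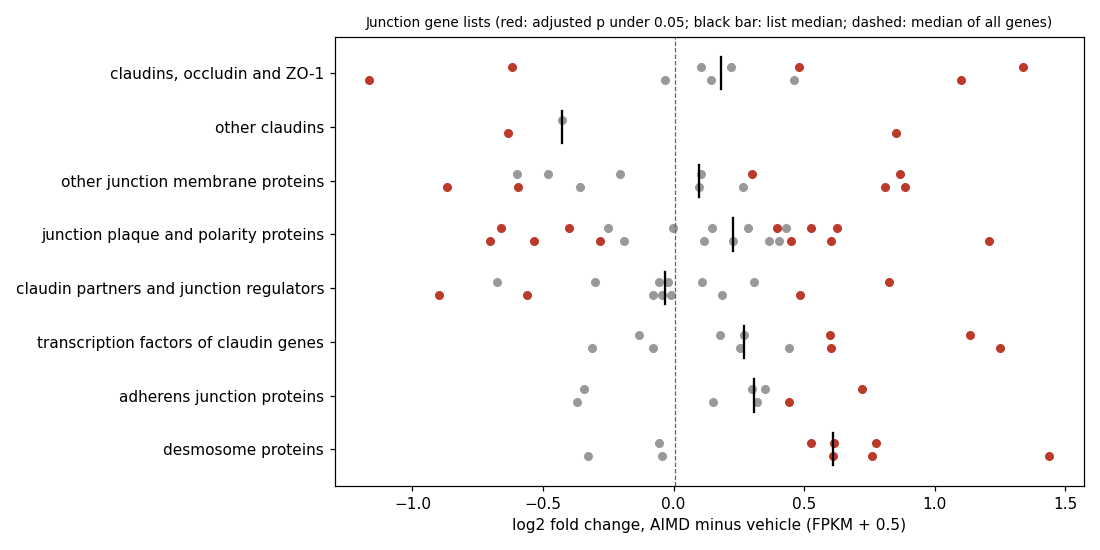
Log2 fold change, AIMD minus vehicle, of each gene that passed the filter (horizontal axis), by list. Red points passed an adjusted p of 0.05, the black bar is the median of each list and the dashed line the median of all genes tested; the desmosome list has the highest median, at 0.61.

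Markers of the cell types in the tissue were summed beside these results. Epithelial markers summed to 4221 to 6683 FPKM in AIMD mice and 3540 to 5450 FPKM in vehicle-treated mice, with 2 of 7 genes higher and 1 lower. For surface colonocytes, sums were 26284 to 37509 and 23554 to 31562 FPKM, with 2 of 7 higher and 1 lower, and for goblet cells 4858 to 10035 and 3007 to 8993 FPKM, with 0 higher and 1 of 5 lower. Crypt base markers summed to 10.1 to 20.7 and 15.5 to 21.4 FPKM, with Lgr5, Axin2 and Olfm4 under 1 FPKM in every mouse and 1 of 3 tested genes lower. Smooth muscle markers summed to 211 to 805 and 512 to 2988 FPKM. Of these 6, 1 was called lower, and all had log2 fold changes under 0, from -1.17 to -0.58. Neuron and glia markers summed to 2.20 to 3.69 and 3.27 to 59.0 FPKM, with 3 of 3 tested genes lower. Immune markers summed to 55.5 to 226 and 40.1 to 84.3 FPKM (1 higher and 1 lower of 6), and fibroblast markers to 29.3 to 66.2 and 25.1 to 111 FPKM (1 of 5 lower). Endothelial sums were 5.12 to 7.57 and 5.50 to 9.75 FPKM with none of 4 tested genes called, and mesothelial sums were 4.82 to 11 and 6.74 to 14.3 FPKM with 1 of 3 lower. With the smooth muscle level as a covariate, an alternative chosen after seeing the data, the log2 fold change was -1.10 for Cldn2, -0.82 for Cldn15, 0.50 for Cldn7 and 1.03 for Ocln, all with a limma adjusted p under 0.05, and 1.10 for Cldn8, with an adjusted p of 0.158.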

How the data were processed

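RNA of emptied ceca was sequenced from poly-A selected, stranded libraries. Per the labels and methods, the authors mapped reads to GRCm38 with STAR, counted them with featureCounts on GENCODE genes, tested them with DESeq2, and deposited FPKM values for each mouse. How counts became FPKM is not given in the sources used here. Of 45808 rows, 4 with a repeated symbol were dropped. With gene lengths from GENCODE M21, FPKM were whole multiples of 1 read (within 0.05 reads) for 68.7% of the genes above 0. For another 6832 genes, a different length that made the values whole was searched, from 20 bases up. Wholeness was thus fitted for these genes and is no property of their FPKM. Both steps together assigned read counts to 96.9% of the genes above 0, from which sequencing depth was derived per mouse. That depth was higher in AIMD mice (two-sided exact permutation p = 0.0345) and limits the precision of low genes.

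Values were scaled by median-of-ratios factors from 13594 genes, and log2(FPKM + 0.5) was tested, for genes reaching 0.5 FPKM in 7 or more mice, with limma 3.58.1 (lmFit, eBayes with trend, R 4.3.3), two-sided. The smallest p that the exact permutation test can give is 0.000155. Other steps were run in Python 3.11.15 (matplotlib 3.10.9, scipy 1.17.1, pandas 2.3.3, numpy 2.4.6). Scripts were tested on simulated data. Groups come from the sample titles. The labels name separate mice, and the p-values measure the spread between them.

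The 10 genes and the lists were chosen with earlier results of these data known. From each junction list the text names the called genes with the largest changes, up to 4, and the most abundant gene, and others are named as counted. A few genes that the rule would name are counted but not reported here. Genes were positioned by GENCODE M21. No 50-base window of the 10 genes occurs in another gene. Among other genes named, 31.5% of Lsr windows also occur in another gene, mainly Gm4673. For Cgn it is 17.2%, mainly BC021767, and for Dbp 16.2%, mainly Sphk2. Alternatives were other scalings, pseudocounts, filters and tests, limma voom on the recovered reads, a replicate block, the clock axis or cluster, and each mouse left out. GC correction and the smooth muscle covariate were added after seeing the data. Liver, serum and stool were not analysed here.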

Additional observations from a re-analysis of the deposited data

Results flagged for a closer look

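Of 22 sets of values examined (the 10 genes and the read depth in both groups), 4 held a mouse whose gap to the next was large for the range of its group, where chance gives about 1 in 20. Cldn3 was 113 FPKM in vehicle replicate 2, and the next vehicle-treated mouse had 63.8. Cldn4 was 78.1 FPKM in vehicle replicate 8, above 35.7 in the next. Ocln was 54.7 FPKM in AIMD replicate 1, above 45.3 in the next, and 34.1 FPKM in vehicle replicate 5, above 23.0 in the next. Causes were not tested.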

How the results depend on the processing

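The calls of Cldn2 and Ocln, and their directions, held under every alternative run. With each mouse left out in turn, 3551 to 4638 genes were called over all, and 2 to 4 of the 10 genes as higher and 2 as lower. Within the high-Arntl mice alone 1883 genes were called and within the high-Dbp mice 2477, where 1 of the 10 genes was called lower, since Cldn15 did not pass. These fits had 7 and 8 mice. Cldn7 missed the threshold within both clusters, at 0.50 and 0.51 on the log2 scale (limma adjusted p = 0.121 and 0.0823). Scaled to the epithelial genes, 5640 genes were called, only 10.7% of them higher against 53.8% before, and 1 of the 10 genes was called higher, since Cldn7 (0.03) and Cldn8 (0.96) no longer passed. This scaling also turned Cldn4 to -0.30, Cldn12 to -0.34 and Tjp1 to -0.22, and within the high-Dbp mice Cldn4 was -0.13 and Tjp1 -0.061, all uncalled. With the smooth muscle covariate Cldn12 was -0.036. Cldn23 was -0.48 scaled to the epithelial genes (adjusted p = 0.0627) and -0.25 within the high-Dbp mice, and it turned to 0.0027 with quantile normalization, 0.029 with the block described next, 0.022 with GC correction and 0.18 within the high-Arntl mice, and ranged from -0.11 to 0.029 with a mouse left out. Cldn8 also missed the threshold without the filter on low values (adjusted p = 0.0956), with limma voom on recovered reads (0.0522), with GC correction (0.0671) and by the exact rank-sum test (0.178).

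Replicate numbers name different mice, and deviations of same-numbered mice correlated at -0.35 to 0.43, so the numbers were not taken as pairs. In both groups replicates 1 to 3 had high Arntl and replicates 5 to 7 high Dbp, so a replicate block overlaps with the clock cluster. With a replicate block, which leaves out vehicle replicate 8, 4647 genes were called and the same 5 of the 10 genes passed, at -1.17 (Cldn2), -0.74 (Cldn15), 0.50 (Cldn7), 1.04 (Cldn8) and 1.11 (Ocln).

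Counted as recovered reads, not per length, the share of Cldn2 in claudin reads was 1.39% under AIMD and 3.72% under vehicle, that of Cldn3 7.08% and 5.58%, and that of Cldn12 7.11% and 7.26%, since longer genes then weigh more. With a mouse left out, the share of Cldn7 was 57.3% to 58.3% under AIMD and 46.1% to 46.9% under vehicle, and that of Cldn15 13.1% to 13.9% and 23.0% to 25.5%. Leaving out a mouse moved the share of Cldn2 within 0.781% to 0.877% and 2.02% to 2.41%, of Cldn3 within 10.4% to 11.8% and 8.19% to 9.27%, and of Cldn4 within 4.66% to 5.08% and 4.27% to 5.58%. For Cldn12 it was 3.22% to 3.45% and 3.40% to 3.64%, for Cldn23 6.97% to 7.83% and 8.27% to 9.32%, and for Cldn8 0.738% to 0.950% and 0.310% to 0.405%. Depth limits Cldn8 most, with 0 to 169 reads in vehicle-treated mice. The interaction of treatment and cluster rests on 3 or 4 mice in each cell.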
